A study of Homo sapiens with 22 samples.

Results

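Nexturastat A, HPOB and Tubastatin A are small-molecule inhibitors of the deacetylase HDAC6, and their transcriptional effects were compared here gene by gene. The 13 libraries of these compounds and of their vehicle controls were used, of 22 in the series, and the other 9, which carry hairpin constructs, were not analysed here. All were bulk RNA-seq libraries made from total RNA. The labels give the cells as MDA-MB231, an established human breast cancer line, of wild-type genotype, grown in DMEM with 10% FBS and taken on day 2. Nexturastat A was given at 7.65 µM for 2 days to 2 libraries and set against 2 libraries named Ctrl, whose label also gives DMSO as the treatment. In a separate experiment 3 HPOB libraries and 3 libraries labelled Tubastatin A, which their titles abbreviate TSA (the treatment label is followed here), were set against 3 DMSO libraries. The sources used here give no dose for HPOB or Tubastatin A, so the values of the 3 compounds stand side by side, and no difference between them can be read apart from dose.

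HDAC6 is a mostly cytoplasmic deacetylase whose known substrates include alpha-tubulin, the chaperone HSP90 and cortactin, whereas the class I enzymes HDAC1, HDAC2 and HDAC3 deacetylate histones on chromatin. Nexturastat A, HPOB and Tubastatin A share a para-substituted N-hydroxybenzamide, the hydroxamic acid that binds the catalytic zinc. They differ in the group attached to it, which is a butyl- and phenyl-substituted urea in Nexturastat A, an anilide with a hydroxyethyl group on its nitrogen in HPOB, and a tetrahydro-gamma-carboline ring system in Tubastatin A. Hydroxamates that reach class I enzymes are known to raise genes such as CDKN1A and DHRS2, and silent lineage-restricted genes, within days.

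Sequencing depth was 58.0 to 61.6 M gene-assigned reads in the Nexturastat A experiment and 31.2 to 41.3 M in the HPOB and Tubastatin A experiment. Cell-type markers are given as reads relative to the library's total (CPM, unscaled), and all other CPM values below are also scaled by the trimmed mean of M-values. Summed epithelial markers lay at 1841 CPM or more and mesenchymal or basal markers at 2560 CPM or more in all 13 libraries. Of 5 luminal breast markers ESR1 and PGR were under 1 CPM throughout, while ERBB2 measured 37.8 to 108 CPM and the 5 summed to 55.8 to 125 CPM. Leukocyte markers summed to at most 1.46 CPM. With Nexturastat A the summed epithelial markers were 3066 to 4386 CPM against 1841 to 1914 with Ctrl, mesenchymal or basal markers 2560 to 3193 against 4231 to 4451, fibroblast markers 42.6 to 44.0 against 10.5 to 13.3, and endothelial markers, mostly PECAM1, 29.2 to 33.6 against 16.1 to 16.7. With HPOB and Tubastatin A the epithelial sum was 2022 to 2368 CPM against 1980 to 2051 with DMSO, and the mesenchymal sum 3024 to 3262 against 3172 to 3278. The epithelial rise with Nexturastat A lay in the keratins KRT7, KRT8, KRT18 and KRT19. EPCAM overlapped its controls (1.87 to 4.90 CPM against 4.15 to 4.81), as did CDH1 (0.172 to 0.286 against 0.166 to 0.195). VIM, MSN, ZEB1 and SPARC were lower with Nexturastat A, but CD44 was not (318 to 371 CPM against 333 to 341). The part of these marker shifts in the Nexturastat A changes was not tested. The 2 experiments did not share a baseline, although the labels name the same line. NKX2-1 measured 52.5 to 64.6 CPM with Ctrl and 0.776 to 1.52 with DMSO, and CDH1 0.166 to 0.195 and 4.07 to 5.35. The identity of the cells in the 2 experiments was not tested and is uncertain. Lung-lineage markers summed to between 37.5 and 67.0 CPM in the Nexturastat A experiment, nearly all of it NKX2-1. In the other experiment they summed to between 2.40 and 4.41 CPM. NAPSA went the other way (0.731 to 0.963 CPM with Ctrl, 1.28 to 2.01 with DMSO), and SFTPB was at most 1.45 CPM. Between the Ctrl and DMSO controls 1717 of 17083 genes (10.1%) differed more than 8-fold. A difference between Nexturastat A and either other compound is therefore also one between experiments, and the 2 cannot be told apart. Nothing in the labels says that replicates came from separate cultures, so the p-values measure the spread between these libraries, which may be technical. In bulk libraries, fewer cells of a type and less RNA per cell cannot be told apart.

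HPOB replicates 2 and 3 and Tubastatin A replicate 2 stood apart from the other treated libraries. Their correlations with the DMSO libraries across genes were 0.980 to 0.983, against 0.987 to 0.990 for the other 3 treated libraries of that experiment. Nexturastat A replicate 1 lay farther from Ctrl (0.926 to 0.927) than replicate 2 did (0.951 to 0.954). Results that rest on one of these libraries are given below with and without it.

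Chemokine genes on chromosome 4 were among the genes higher in all 8 treated libraries, and the sequences just upstream of 4 of them are shown because they share 1 motif. The windows are read 5′ to 3′ on the gene's strand from RefSeq's GRCh38.p14 promoters, and capitals mark the letters GGAATTTCC, which match the kappaB element bound by NF-kB. CXCL8 is at chr4:73740453-73740511 on the plus strand, CXCL1 at chr4:73869290-73869348 on the plus strand, CXCL2 at chr4:74099239-74099297 on the minus strand and CXCL3 at chr4:74038734-74038792 on the minus strand.
CXCL8: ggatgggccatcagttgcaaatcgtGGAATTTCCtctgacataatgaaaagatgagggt
CXCL1: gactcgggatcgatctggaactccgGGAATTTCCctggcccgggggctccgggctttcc
CXCL2: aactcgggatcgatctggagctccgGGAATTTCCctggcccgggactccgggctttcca
CXCL3: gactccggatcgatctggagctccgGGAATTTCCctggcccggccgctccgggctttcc
The motif begins 91, 78, 77 and 78 bases before the RefSeq transcription start of CXCL8, CXCL1, CXCL2 and CXCL3. The 250 bases before each start were searched for it on both strands. Of the NF-kB list, 9 of the 21 genes with a promoter entry held it (42.9%). It was held by 5 of the 13 with an entry that were higher in all 8 treated libraries (38.5%). Over all genes with a promoter entry 137 of 27305 held it (0.502%). The list was drawn up as NF-kB targets, so its share above that of all genes is not a finding of these data. The holders also included CXCL5, CXCL6, ICAM1, NFKBIA, and NFKB1, which fell with Nexturastat A. A match describes the letters only, and no binding was measured here.

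Several chemokine and cytokine genes lay above their controls with each of the 3 compounds, and some passed the test with Nexturastat A or HPOB. CXCL8 (chr4:73740506-73743716, GRCh38), the neutrophil chemokine interleukin 8, measured 35.5 and 43.8 CPM in the Ctrl libraries and 217 and 307 CPM with Nexturastat A. In the other experiment it measured 78.5, 76.4 and 72.8 CPM with DMSO, 176, 244 and 199 CPM with HPOB, and 123, 185 and 126 CPM with Tubastatin A. Every treated library lay above every control of its own experiment. The fitted log2 fold changes were 2.72 with Nexturastat A (edgeR quasi-likelihood test, Benjamini-Hochberg adjusted p = 0.000509), 1.44 with HPOB (adjusted p = 0.0109) and 0.93 with Tubastatin A (adjusted p = 0.446). CXCL8 thus rose with Nexturastat A and HPOB, and its level with Tubastatin A, though outside the DMSO range in 3 of 3 libraries, did not pass the test.

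IL1A (chr2:112773915-112784590), the alarmin interleukin 1 alpha, went from 1.3 and 1.01 CPM with Ctrl to 3.09 and 2.79 CPM with Nexturastat A. It measured 1.31, 1.61 and 1.96 CPM with DMSO, 5.12, 6.66 and 8.22 CPM with HPOB, and 4.22, 5.52 and 3.36 CPM with Tubastatin A, with no overlap in any comparison. The log2 fold changes were 1.35 (adjusted p = 0.0149, edgeR), 2.04 (0.0147) and 1.43 (0.446) in the order Nexturastat A, HPOB, Tubastatin A. Without Ctrl replicate 1 or 2 the Nexturastat A call was lost (adjusted p = 0.0813 and 0.140).

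IL24 (chr1:206897443-206904139), a cytokine of the interleukin 10 family, was at 0 in both Ctrl libraries and at 1.25 and 0.788 CPM with Nexturastat A. Against a floor of 3 counts over the Ctrl group this is at least 42.5-fold higher. It measured 16.8, 19.6 and 16.3 CPM with DMSO, 36.1, 44.1 and 50.7 CPM with HPOB, and 28.9, 46.2 and 32.3 CPM with Tubastatin A. All treated libraries lay above their controls, with log2 fold changes of 1.32 for HPOB (adjusted p = 0.0212, edgeR) and 1.03 for Tubastatin A (0.446).

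TNFSF15 (chr9:114784635-114806126), the TNF-family ligand TL1A, measured 1.2 and 1.35 CPM with Ctrl and 5.10 and 5.81 CPM with Nexturastat A. It measured 25, 23.0 and 22.9 CPM with DMSO, 37.9, 41.5 and 40.7 CPM with HPOB, and 29.6, 30.4 and 30.5 CPM with Tubastatin A. The 3 groups of that experiment did not overlap, and HPOB stood highest. The log2 fold changes were 2.10 with Nexturastat A (adjusted p = 0.00249, edgeR), 0.76 with HPOB (0.0147) and 0.35 with Tubastatin A.

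CXCL8, IL1A, IL24 and TNFSF15 were the 4 genes of 15338 (0.0261%) that passed the test with HPOB, all higher, where 1588 had an unadjusted p under 0.05 and DESeq2 called 120. No gene (0%) passed with Tubastatin A in edgeR, where 757 had an unadjusted p under 0.05 and DESeq2 called 23. All 4 HPOB calls were lost when any DMSO library was left out (adjusted p between 0.0828 and 0.288) or when HPOB replicate 2 was (0.0974 to 0.128). Without HPOB replicate 3 only CXCL8 kept its call (adjusted p = 0.0467), and IL24 also lost its call without Tubastatin A replicate 3 (0.0548). With HPOB replicate 3 and Tubastatin A replicate 2 both left out, the 4 genes kept their calls (adjusted p up to 0.00602) among 20 called, and 78 genes were called without Tubastatin A replicate 2 alone.

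The fixed list of NF-kB targets and inflammatory cytokines held 28 genes, of which 23 passed the filter on low counts in the Nexturastat A fit and 25 in the other. With Nexturastat A 12 of the 23 rose and 4 fell, where 21.1% of all genes rose and 15.5% fell. All treated libraries lay above all DMSO libraries for 16 of 25 members with HPOB, where 11.2% of all genes did so, and for 15 of 25 with Tubastatin A, against 9.15% of all genes. The list's median log2 fold change was 0.93 with Nexturastat A, 0.63 with HPOB and 0.37 with Tubastatin A, beside 0.03, 0.01 and 0.01 over all genes tested. Of the 23 members tested in both fits, 14 were higher in all 8 treated libraries, against 6.47% of all genes. Of these, 7 were higher by at least 1.2-fold in each library, against 0.997% of all genes.

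Among the ligands of this list, CSF2 (GM-CSF) measured 4.13 and 4.21 CPM with Ctrl, 7.31 and 18.2 with Nexturastat A, 7.11 to 8.72 with DMSO, 14.1, 20.5 and 25.3 with HPOB, and 8.88, 23.2 and 13.4 with Tubastatin A. CXCL1 measured 4.08 and 3.70 CPM with Ctrl, 5.98 and 8.90 with Nexturastat A, 4.85 to 8.17 with DMSO, 10.4, 19.6 and 20.2 with HPOB, and 8.63, 20.3 and 9.28 with Tubastatin A. For both genes the treated libraries lay above their controls and Tubastatin A replicate 2 was highest within its group. Both passed with Nexturastat A, but not without Ctrl replicate 1 or 2 (adjusted p between 0.136 and 0.207, edgeR). IL6 measured 31 to 33.1 CPM with DMSO, 56.5, 76.3 and 70.0 with HPOB (log2 fold change 1.09, adjusted p = 0.0682, edgeR) and 43.4, 74.1 and 49.3 with Tubastatin A (0.81, adjusted p = 0.594), but was under 1 CPM in the Nexturastat A experiment. CXCL2 had log2 fold changes of 0.65, 1.33 and 1.12, and CXCL3 of 0.89, 1.15 and 1.01, in the order Nexturastat A, HPOB, Tubastatin A, and none of these passed the test. CXCL1, CXCL2 and CXCL3 are close paralogs, and the sources used here do not say how reads that fit more than 1 of them were counted.

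Several intracellular regulators of the pathway rose with Nexturastat A and had smaller values with HPOB and Tubastatin A. BIRC3, an inhibitor of apoptosis that NF-kB induces, rose by 2.87 on the log2 scale with Nexturastat A and had values of 0.34 with HPOB and 0.27 with Tubastatin A. TNFAIP3, the A20 feedback inhibitor, rose by 1.59 with Nexturastat A and had values of 0.63 and 0.43. RELB (1.08, 0.21, 0.20), NFKBIE (1.08, 0.37, 0.29) and NFKB2 (0.93, 0.25, 0.25) likewise had their largest value with Nexturastat A. NFKBIA, the main inhibitor of NF-kB, differed from these, with values of -0.04 for Nexturastat A, 0.40 for HPOB and 0.28 for Tubastatin A. NFKB1, the p105 precursor subunit, fell by 1.23 with Nexturastat A, with values of -0.07 and -0.09 for the other 2, and TNFAIP2, CSF1 and LIF fell as well (-0.95, -0.79 and -0.65). The list's median in single libraries was 0.86 and 0.95 with Nexturastat A, 0.44, 0.41 and 0.72 with HPOB, and 0.15, 0.59 and 0.34 with Tubastatin A, so HPOB replicate 3 and Tubastatin A replicate 2 were the highest of their groups.

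**Figure D1:**
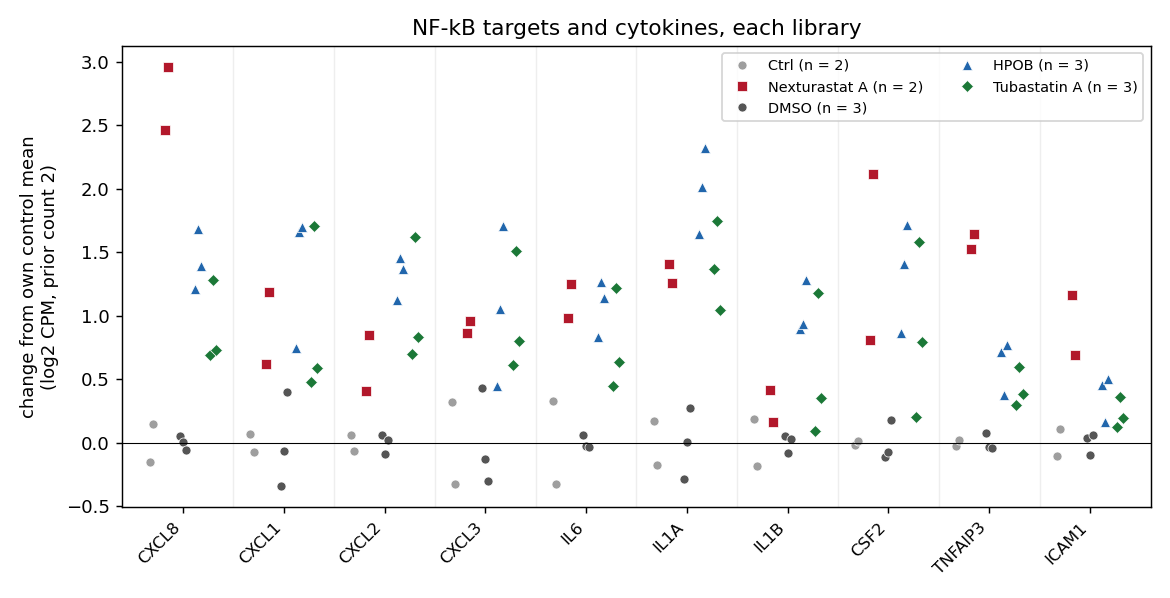
Change of 10 NF-kB target and cytokine genes in each library, as log2 CPM minus the mean of the library's own controls (prior count 2), with the gene on the x axis. Points are single libraries of the 2 Ctrl, 2 Nexturastat A, 3 DMSO, 3 HPOB and 3 Tubastatin A samples. CXCL8 and TNFAIP3 are highest with Nexturastat A, whereas IL1A, CXCL2 and IL1B are highest with HPOB or Tubastatin A libraries.

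The size of the whole profile differed by compound. With Nexturastat A 6112 of 16678 genes (36.6%) passed the test at an adjusted p under 0.05, 3520 higher (21.1%) and 2592 lower (15.5%). Leaving out Ctrl replicate 1 or 2 reduced this count to 1781 or 1921. The median absolute log2 fold change was 0.48 with Nexturastat A, 0.16 with HPOB and 0.13 with Tubastatin A. A near-empty call list does not show that HPOB and Tubastatin A were without effect. For 12270 of 15338 genes (80.0%) with HPOB and 12501 (81.5%) with Tubastatin A, however, the 95% interval of the fold change lay inside 2-fold in either direction.

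Genes that passed with Nexturastat A leaned the same way with the other 2 compounds, at a fraction of the size. Of the 2488 genes that rose with Nexturastat A and were tested in both fits, 71.6% had a fold change above 0 with HPOB and 67.9% with Tubastatin A, beside 51.0% and 53.0% of all 14748 genes tested in both. Their median log2 fold change was 0.16 with HPOB and 0.11 with Tubastatin A. Of the 2552 genes that fell, 27.8% and 34.2% were above 0, with medians of -0.11 and -0.06. In single libraries the median of the risen genes was 0.10, 0.15 and 0.23 in the HPOB libraries and 0.04, 0.19 and 0.09 in the Tubastatin A libraries, and between 0.00 and 0.01 in the DMSO libraries. The median of the fallen genes was -0.06, -0.10 and -0.14 with HPOB and -0.01, -0.13 and -0.05 with Tubastatin A. In Tubastatin A replicate 1, 47.8% of the fallen genes lay above the DMSO mean, inside the range of the DMSO libraries (47.2% to 55.6%). That library thus showed no clear lean on the lower side. Across the 14748 genes, which are not independent replicates, the fold changes of Nexturastat A correlated with those of HPOB at r = 0.250 (rho = 0.319) and with those of Tubastatin A at r = 0.177 (rho = 0.240). HPOB and Tubastatin A share their DMSO controls, so no correlation between those 2 is given. Fold changes also ran with transcript length, at Spearman correlations of -0.172 for Nexturastat A, -0.375 for HPOB and -0.291 for Tubastatin A. With GC content the correlations were 0.122, 0.102 and 0.316 in the same order. With trends on length and GC content removed, the correlations of Nexturastat A with HPOB and Tubastatin A were 0.233 and 0.157.

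**Figure D2:**
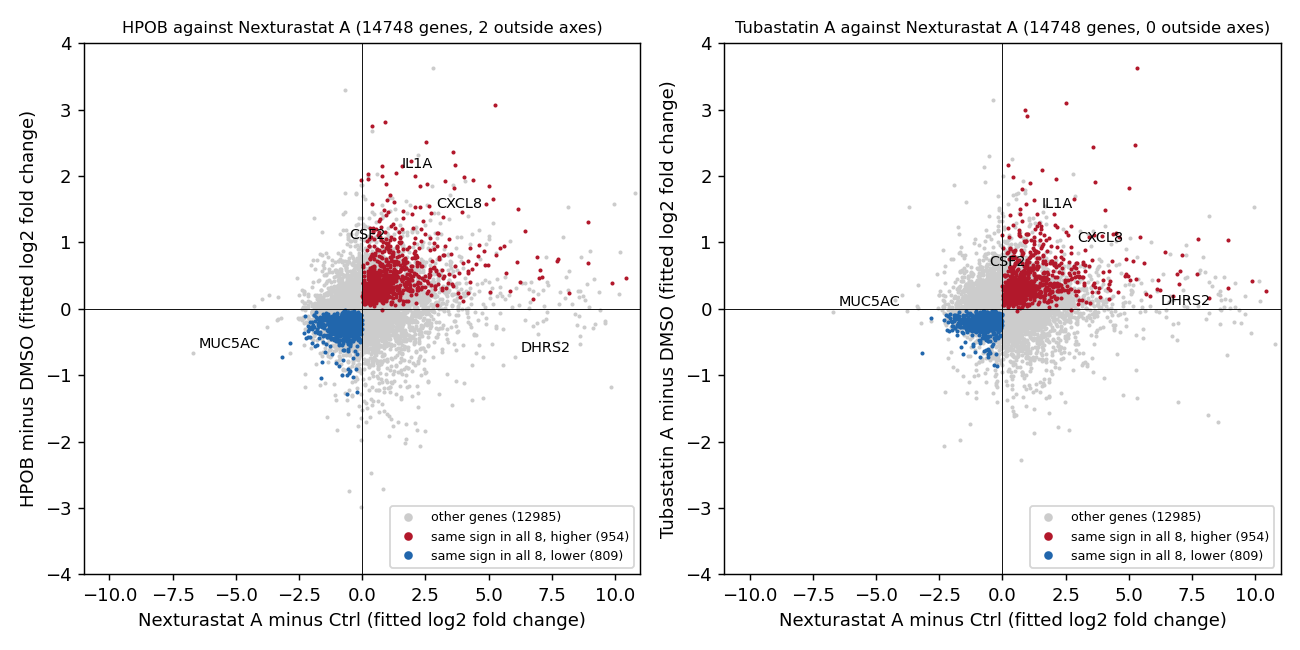
Fitted log2 fold change of 14748 genes with Nexturastat A (x axis) against HPOB (left, y axis) and Tubastatin A (right, y axis), each relative to its own controls. Coloured points are the 954 genes higher and the 809 genes lower in all 8 treated libraries, and the points spread far more along the x axis than along the y axes, which end at 4 and -4 and leave 2 HPOB points outside.

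All 8 treated libraries lay on the same side of the mean of their own controls for 954 genes on the higher side (6.47% of 14748) and 809 on the lower side (5.49%). With HPOB replicate 3 and Tubastatin A replicate 2 left out the counts were 1202 and 1081. The lower count was 1333 without HPOB replicate 2 and 1278 without Tubastatin A replicate 1. Their median log2 fold changes were 0.74 with Nexturastat A, 0.36 with HPOB and 0.31 with Tubastatin A for the higher genes, and -0.59, -0.23 and -0.19 for the lower ones. Of the higher genes 530 (55.6%) and of the lower genes 434 (53.6%) passed the test with Nexturastat A, where 36.6% of all genes did, but the same libraries chose these genes and nothing is read from that share. With HPOB 4 and 0 passed, and with Tubastatin A none. HPOB and Tubastatin A share their DMSO libraries, so their signs are not independent. Shared changes of at least 1.2-fold lay mostly on the higher side, where 147 genes (0.997%) were that far above their controls in all 8 libraries, and 6 (0.0407%) were that far below.

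Apart from CXCL8, CSF2 and CXCL1, the higher genes with the largest smallest change of the 3 compounds were PTPRH, SYNGR1, ATF3, RTN4RL2 and CRABP2. ATF3, a stress-induced transcription factor, measured 5.36 and 7.46 CPM with Ctrl and 22.9 and 18.7 with Nexturastat A. It measured 15.7, 16.6 and 15.4 CPM with DMSO, 23.0, 23.6 and 30.3 with HPOB, and 23.4, 32.5 and 22.9 with Tubastatin A, with no overlap in any comparison. Its log2 fold changes were 1.70 (adjusted p = 0.00292, edgeR), 0.69 and 0.72, and only the first passed the test. PTPRH, a receptor tyrosine phosphatase, had values of 1.10, 1.04 and 0.86, SYNGR1, a synaptic vesicle protein, of 1.58, 0.81 and 0.94, and CRABP2, which binds retinoic acid, of 0.77, 0.68 and 0.81. The growth factor gene AREG was higher in all 8 libraries too, at 1525 and 634 CPM with Nexturastat A against 59.6 and 58.4 with Ctrl, and at 73.1 to 109 CPM with the other compounds against 64.8 to 70.8 with DMSO.

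On the lower side the 8 genes chosen by the same measure were NFIA, DDX6, GATAD2B, UACA, ADAMTS15, CCSAP, PTPRJ and CBX5, with log2 fold changes between -1.80 and -0.39 over the 3 compounds. Their longest transcripts run from 5121 bases (CCSAP) to 11528 (CBX5), against 787 (CSF2) to 4391 (SYNGR1) for the 8 higher genes. Fold changes over all genes fell with transcript length, as given above, and the part of length by itself in these genes was not tested. DDX6, an RNA helicase of processing bodies, measured 142 and 137 CPM with Ctrl and 62.2 and 82.7 with Nexturastat A. It measured 171, 173 and 164 CPM with DMSO, 157, 127 and 77.7 with HPOB, and 160, 71.0 and 136 with Tubastatin A. The groups did not overlap, but the lowest values by far were HPOB replicate 3 and Tubastatin A replicate 2, 2 of the 3 libraries that stood apart. CBX5, the heterochromatin protein HP1 alpha, was lowest in all 3 of those libraries, at 114 to 122 CPM with DMSO, 103, 72.4 and 66.7 with HPOB, and 108, 63.7 and 99.3 with Tubastatin A, and it fell by 1.80 on the log2 scale with Nexturastat A. The part of these libraries in the shared lower genes was not tested beyond leaving them out.

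HDAC6 itself did not pass the test with any compound. Its mRNA measured 30.9 and 29.6 CPM with Ctrl, 26.9 and 26.3 with Nexturastat A, 85.9 to 98.3 with DMSO, 66.9 to 126 with HPOB and 94.3 to 122 with Tubastatin A. The log2 fold changes were -0.19 (adjusted p = 0.328, edgeR), 0.08 and 0.19, and the libraries overlapped their controls with HPOB and Tubastatin A but not with Nexturastat A. Since the compounds inhibit the enzyme, its mRNA level is no check of their action. Among 18 deacetylases and sirtuins, 4 rose with Nexturastat A (SIRT4 by 1.73, HDAC9 by 1.63, SIRT7 by 0.80 and SIRT6 by 0.56) and 4 fell (HDAC7 at -1.20, SIRT1 at -0.77, HDAC8 at -0.51 and HDAC1 at -0.49), and none passed with the other 2 compounds. These counts are near the shares of all genes (21.1% higher and 15.5% lower), and except for HDAC9 and HDAC7 the calls were lost without Ctrl replicate 1 or 2 (adjusted p between 0.0696 and 0.293, edgeR). Of 24 genes for HDAC6 substrates and partners, 8 rose and 2 fell with Nexturastat A, and the medians were 0.04, 0.05 and 0.10. TUBA1A, an alpha-tubulin gene, rose by 1.15 with Nexturastat A and had values of 0.32 and 0.21, and SQSTM1, the p62 autophagy receptor, rose by 1.23 with values of 0.23 and 0.27. TPPP, which promotes tubulin polymerization, rose by 2.01 and had values of -0.10 and 0.42. Of 20 cytosolic heat shock chaperones 1 rose and 4 fell with Nexturastat A, and the medians were -0.35, 0.05 and 0.05.

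Genes known to be induced by broad deacetylase inhibitors rose for the most part with Nexturastat A and had smaller values with the other 2 compounds. Of 20 known induced genes 14 rose with Nexturastat A and 18 lay above Ctrl without overlap, where 39% of all genes did so, while 10 lay above DMSO without overlap with HPOB (11.2% of all genes) and 4 with Tubastatin A (9.15%). The medians were 2.03, 0.20 and 0.20. With each of HPOB and Tubastatin A 17 of the 20 were above 0, where 51.0% and 53.0% of all genes tested in both fits were. In all 8 treated libraries 8 were higher, against 6.47% of all genes. DHRS2 (chr14:23630115-23645639), a short-chain dehydrogenase, measured 5.38 and 5.67 CPM with Ctrl and 387 and 352 with Nexturastat A, which is a log2 fold change of 6.06 (adjusted p = 2.0e-05, edgeR). With HPOB it measured 0.50, 0.885 and 0.780 CPM and with Tubastatin A 1.51, 1.16 and 0.868, against 1.39, 1.13 and 1.09 with DMSO, so it was not higher with either. CDKN1A (chr6:36676460-36687339), the cell-cycle inhibitor p21, measured 42.4 and 45.5 CPM with Ctrl and 176 and 227 with Nexturastat A. It measured 58.5, 58.3 and 61.5 CPM with DMSO, 76.5, 72.0 and 87.2 with HPOB, and 64.3, 80.8 and 72.2 with Tubastatin A. All 8 treated libraries were higher than their controls, but the log2 fold change of 2.20 with Nexturastat A (adjusted p = 0.00047, edgeR) stood against 0.40 (0.294) and 0.29 (0.856). Of 16 genes known to be repressed by such inhibitors 2 fell with Nexturastat A and 2 rose, both below the shares of all genes (15.5% and 21.1%). The medians were -0.93, -0.13 and -0.09. The 2 that rose were MYC, at 2.05 with values of 0.35 and 0.34 for HPOB and Tubastatin A, and CCND1, at 0.69 with values of -0.29 and -0.28, whose call was lost without Ctrl replicate 1 or 2 (adjusted p = 0.131 to 0.162, edgeR).

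Genes of restricted expression, among them MHC class II and neuronal genes, rose with Nexturastat A. Over all genes 21.1% rose with this compound. Of 9 MHC class II genes that passed the filter 8 rose, HLA-DRA at least 121-fold and HLA-DQB1 at least 154-fold over Ctrl libraries at 0 counts (floor of 3 counts over the group). With HPOB 7 of 11 lay above DMSO without overlap and with Tubastatin A 4 of 11, with medians of 0.56 and 0.38. The shares of all genes that did so, 11.2% with HPOB and 9.15% with Tubastatin A, apply to each such count in this paragraph. HLA-DPA1, for example, measured 0.478 and 0.370 CPM with Ctrl, 14.7 and 10.2 with Nexturastat A, 9.84 to 11.9 with DMSO, 15.3 to 20.04 with HPOB and 12.8 to 22.2 with Tubastatin A. Of 15 neuronal genes repressed by the factor REST 10 rose with Nexturastat A and none passed with the others, where 2 of 12 lay above DMSO with each, close to the share of all genes. Of 13 cancer-testis genes 9 rose, with 5 of 10 above DMSO with HPOB and 1 of 10 with Tubastatin A. All 6 metallothioneins that passed the filter, which bind zinc and copper, rose with Nexturastat A, while 4 of 5 lay above DMSO with HPOB and 0 of 5 with Tubastatin A (medians 0.59 and 0.37). The calls of MT1B, MT1E, MT1F and MT1X with Nexturastat A were lost without Ctrl replicate 1 or 2 (adjusted p between 0.0566 and 0.281, edgeR). MT2A showed the spread behind this, at 467, 630 and 714 CPM with HPOB and 410, 854 and 461 with Tubastatin A against 375 to 429 with DMSO. HLA-DRA was at 0 counts in Ctrl but at 10.3 to 15.1 CPM with DMSO, so the starting level of this gene differed between the experiments.

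Most genes of the unfolded protein response lay above DMSO with HPOB and Tubastatin A, while their median with Nexturastat A was near 0. The unfolded protein response raises chaperones of the endoplasmic reticulum when misfolded proteins accumulate there, and its ATF4 arm raises amino acid and stress genes. Of 27 genes 20 lay above DMSO without overlap with HPOB and 18 with Tubastatin A, where 11.2% and 9.15% of all genes did so, with medians of 0.30 and 0.30, but none passed the test. In all 8 treated libraries 10 of the 27 were higher, against 6.47% of all genes. With Nexturastat A 3 rose and 3 fell, both below the shares of all genes (21.1% and 15.5%), with a median of -0.07. HSPA5 (chr9:125234853-125241330), the chaperone BiP, measured 2038, 1979 and 1935 CPM with DMSO, 2913, 3294 and 3429 with HPOB, and 2544, 3621 and 2702 with Tubastatin A. All 6 treated libraries lay above DMSO, with log2 fold changes of 0.70 (adjusted p = 0.169, edgeR) and 0.58 (0.621). In the Nexturastat A experiment HSPA5 measured 737 and 860 CPM with Ctrl and 807 and 1028 with the compound, which overlap (0.20, adjusted p = 0.379). HERPUD1, a component of endoplasmic reticulum degradation, had values of 0.08, 0.55 and 0.51, and MANF, a secreted chaperone-like factor, of -0.12, 0.54 and 0.40. DDIT3, the transcription factor CHOP, rose with Nexturastat A (0.87) and had values of 0.58 and 0.55, and SDF2L1 rose as well (1.24, with 0.56 and 0.51). Without Ctrl replicate 1 or 2 the call of DDIT3 was lost (adjusted p = 0.0778 to 0.192, edgeR), and that of SDF2L1 without Ctrl replicate 1 (0.0625). The list's median in single libraries was 0.23, 0.30 and 0.42 with HPOB and 0.14, 0.46 and 0.18 with Tubastatin A, and -0.19 and 0.06 with Nexturastat A. In the tests of pairs described below, Nexturastat A differed from HPOB for 4 of the 27 genes, 1 higher and 3 lower. It differed from Tubastatin A for 3, 1 higher and 2 lower. These counts are near or below the shares of all genes, 14.7% against HPOB and 15.6% against Tubastatin A.

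Medians of the chromosome and cell-cycle lists were below 0 with all 3 compounds, by unequal amounts. Of 23 genes of cohesin, condensin and CTCF, which hold and fold chromosomes, 14 fell with Nexturastat A (median -1.03), against 15.5% of all genes. With HPOB 13 lay below DMSO without overlap, where 10.4% of all genes did so, and with Tubastatin A 10, against 7.55% (medians -0.19 and -0.17). All 8 treated libraries were lower for 14 of the 23, against 5.49% of all genes. STAG2, a cohesin subunit, measured 149 and 161 CPM with Ctrl, 62.7 and 70.0 with Nexturastat A, 157 to 168 with DMSO, 143, 152 and 123 with HPOB, and 152, 113 and 142 with Tubastatin A. PDS5A, which regulates cohesin on DNA, fell by 1.15 on the log2 scale with Nexturastat A and had values of -0.31 and -0.26. The Nexturastat A calls of STAG2 and PDS5A held without Ctrl replicate 1 or 2, while those of NCAPD2 and SMC1A were lost. The list's median was -0.12, -0.11 and -0.39 in the HPOB libraries and -0.05, -0.42 and -0.14 in the Tubastatin A libraries, lowest again in HPOB replicate 3 and Tubastatin A replicate 2. With both left out 15 members were lower in all remaining treated libraries. No member reached 1.2-fold in all 8 libraries. Trends on length and GC content were removed only together, in a setting chosen after seeing the data. The part of transcript length by itself in this list was not tested.

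Of 32 genes of mitosis and G2/M, all 32 were lower in both Nexturastat A libraries than in both Ctrl libraries, where 35.2% of all genes were, but 2, ECT2 and BUB3, passed the test, BUB3 not without Ctrl replicate 1 or 2 (adjusted p = 0.0855 to 0.121, edgeR). The list's median was -2.95 in Nexturastat A replicate 1 and -1.15 in replicate 2, so the replicates differed far more than the controls did. TOP2A, the topoisomerase of dividing cells, measured 822 and 829 CPM with Ctrl and 88.6 and 332 with Nexturastat A, and 597 to 599 with DMSO, 465 to 520 with HPOB and 434 to 557 with Tubastatin A. Its log2 fold changes were -1.97 (adjusted p = 0.0948, edgeR), -0.30 and -0.26. The medians with HPOB and Tubastatin A were -0.10 and -0.11, and 12 of the 32 genes were lower in all 8 treated libraries, or 19 when HPOB replicate 2 was left out or when trends on length and GC content were removed. Of 33 genes of DNA replication 3 fell with Nexturastat A (median -0.93), which like the 2 of 32 mitotic genes is below the 15.5% of all genes. The medians were -0.09 and -0.10 for HPOB and Tubastatin A, and 8 of the 33 were lower in all 8 libraries, against 5.49% of all genes. Of 30 DNA repair genes 14 fell with Nexturastat A (medians -0.85, -0.19 and -0.10), and 12 were lower in all 8 libraries. FANCD2, of the Fanconi anaemia pathway, measured 31.6 and 31.2 CPM with Ctrl, 5.05 and 12.1 with Nexturastat A, 49.4 to 51.1 with DMSO, 48.2, 40.4 and 29.3 with HPOB, and 46.7, 30.1 and 46.8 with Tubastatin A. It fell by 1.87 with Nexturastat A (adjusted p = 0.0197, edgeR), but not without Ctrl replicate 1 or 2 (0.0771 and 0.0713).

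**Figure D3:**
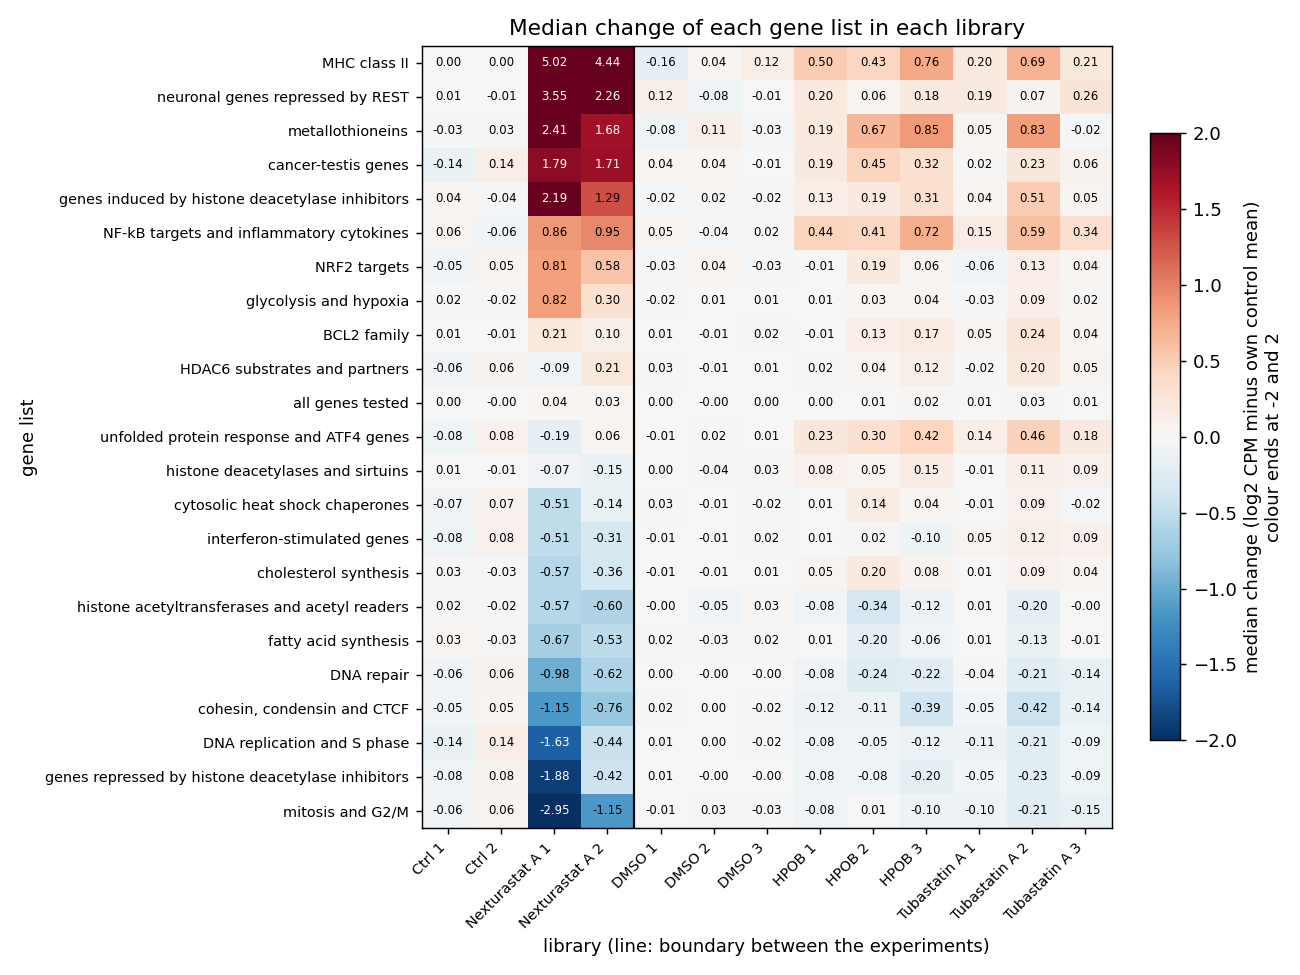
Median change of each gene list (rows) in each of the 13 libraries (columns), as log2 CPM minus the mean of the library's own controls. Cell numbers give the medians, and the colour scale ends at -2 and 2. NF-kB and unfolded protein response genes are above 0 in all 6 HPOB and Tubastatin A libraries, and mitotic genes are lowest in the 2 Nexturastat A libraries.

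The remaining lists held genes that passed with Nexturastat A and none that passed with HPOB or Tubastatin A. Over all genes 21.1% rose and 15.5% fell with Nexturastat A. Of 22 NRF2 targets 13 rose and 2 fell (medians 0.79, 0.08 and 0.06), among them AKR1B10 by 3.81 and SRXN1 by 2.12, the latter with values of 0.23 and 0.15. Of 32 glycolysis and hypoxia genes 14 rose and 2 fell (medians 0.58, 0.03 and 0.03), among them ANGPTL4 by 2.74, EGLN3 by 2.44 and ADM by 2.37. Of 22 cholesterol synthesis genes 10 fell and 2 rose (medians -0.48, 0.12 and 0.02), and none had the same sign in all 8 libraries. Of 16 fatty acid synthesis genes 9 fell and 3 rose (medians -0.62, -0.07 and -0.04). SCD, which makes monounsaturated fatty acids, measured 1094 and 967 CPM with Ctrl and 286 and 266 with Nexturastat A, and 1643 to 1698 with DMSO, 1245 to 1622 with HPOB and 1180 to 1653 with Tubastatin A. Of 31 interferon-stimulated genes 11 fell and 2 rose (medians -0.49, -0.03 and 0.07). Of 15 BCL2 family genes 5 rose and 2 fell, BCL2L1 at 0.96 and MCL1 at -0.86, where the values with HPOB and Tubastatin A were 0.05 and -0.03 for BCL2L1 and 0.02 and 0.00 for MCL1. The share that fell is near that of all genes, and the calls of BCL2L1 (adjusted p = 0.0557 to 0.0576, edgeR) and, without Ctrl replicate 1, MCL1 (0.0659) were lost without a Ctrl library. Of 17 histone acetyltransferases and acetyl readers 11 fell (medians -0.60, -0.19 and -0.08), with KAT6B at -1.28, -0.56 and -0.22. The call of KAT6B held without Ctrl replicate 1 or 2, while those of CREBBP, KAT6A and KAT2B were lost.

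Genes that Nexturastat A moved alone were defined by 3 conditions. The gene passed the test with Nexturastat A, its fold change differed in the same direction from both HPOB and Tubastatin A in a joint fit of the 13 libraries (p adjusted over genes and the 3 pairs), and the 95% intervals of HPOB and Tubastatin A lay inside 2-fold. On the higher side 842 of 17083 genes (4.93%) and on the lower side 803 (4.7%) met all 3. The word alone describes the size and not the sign, since 145 of the 842 (17.2%) and 108 of the 803 (13.4%) also had the same sign in all 8 libraries. For those genes a change under 2-fold with HPOB and Tubastatin A accompanied a larger one with Nexturastat A. The count of 1645 fell to 590 or 606 without Ctrl replicate 1 or 2, to 1047 without Nexturastat A replicate 1 and to 1092 without DMSO replicate 3, and was 2631 without Nexturastat A replicate 2.

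The highest of these genes were DNER, DMKN, RPL13AP20, L1CAM, WWC1, HIST1H2BD, PCDH1 and HSPB8. L1CAM (chrX:153861514-153886174), a neural cell adhesion molecule, measured 6.66 and 5.78 CPM with Ctrl and 119 and 106 with Nexturastat A. It measured 142, 139 and 140 CPM with DMSO, 159, 99.2 and 164 with HPOB, and 149, 160 and 158 with Tubastatin A. The level reached with Nexturastat A lay below the DMSO level of the other experiment. The log2 fold changes were 4.18 (adjusted p = 0.000192, edgeR), 0.01 and 0.15. HSPB8, a small heat shock protein, had the same layout, at 3.31 and 4.34 CPM with Ctrl, 35.8 and 42.5 with Nexturastat A, 38.6 to 42.1 with DMSO, 39.7 to 52.6 with HPOB and 44.6 to 51.2 with Tubastatin A. DNER, a transmembrane Notch ligand, measured 0.802 and 0.724 CPM with Ctrl, 48.0 and 19.4 with Nexturastat A, and 7.47 to 12.1 in the 9 libraries of the other experiment. RPL13AP20 is a processed pseudogene that may share reads with its parent, so its value is uncertain.

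The starting level differed for many of these genes. DMSO libraries lay over 2-fold above Ctrl for 361 of the 842 higher genes (42.9%), where 17.9% of all genes did so, and for 60 of the 803 lower genes (7.47%). DMSO lay over 2-fold below Ctrl for 111 of the 803 lower genes (13.8%), against 16.6% of all genes, and 632 (78.7%) differed by less than 2-fold between the controls. The part of these starting levels in the difference between the compounds was not tested.

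The lowest of these genes were SLCO4A1, IFIT3, CEMIP, SPOCD1, FOXQ1, PHYHD1, STAT5A and DDX60. FOXQ1, a forkhead transcription factor, started from like levels in both experiments, at 40.9 and 36.5 CPM with Ctrl and 39.2, 43.7 and 41.3 with DMSO. It measured 6.90 and 8.11 CPM with Nexturastat A, 33.2, 39.1 and 38.1 with HPOB, and 41.0, 40.7 and 45.8 with Tubastatin A. It fell by 2.36 on the log2 scale with Nexturastat A (adjusted p = 0.00047, edgeR), and its 95% intervals were -0.39 to 0.05 with HPOB and -0.19 to 0.26 with Tubastatin A. STAT5A, a cytokine-activated transcription factor, was alike in this, at 19.3 and 16.8 CPM with Ctrl, 19.0 to 23.2 with DMSO, 3.03 and 4.22 with Nexturastat A, 18.9 to 24.3 with HPOB and 20.2 to 25.8 with Tubastatin A. CEMIP, a hyaluronan-degrading protein, measured 259 and 198 CPM with Ctrl and 40.4 and 40.7 with Nexturastat A, but 48.1 to 52.5 with DMSO, 26.3 to 58.6 with HPOB and 54.7 to 63.8 with Tubastatin A. SLCO4A1, an organic anion transporter, was lower in all 8 libraries, with log2 fold changes of -2.85, -0.52 and -0.14.

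**Figure D4:**
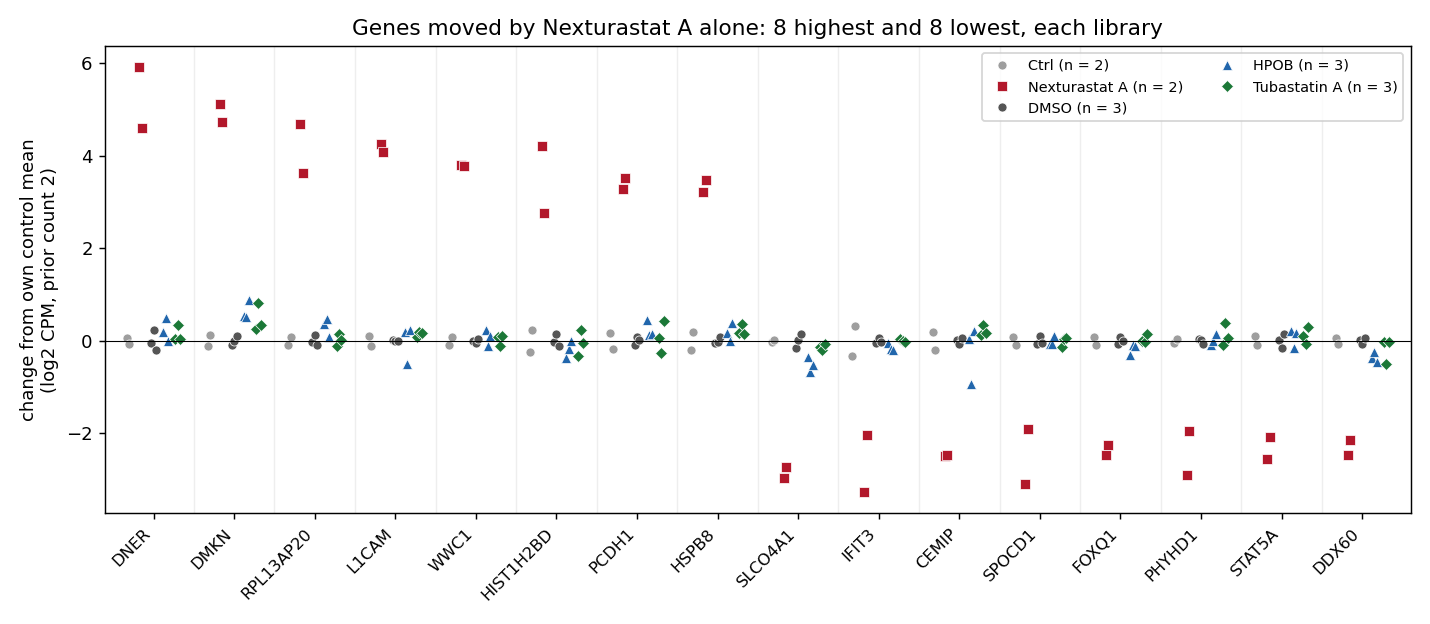
Change of the 8 highest and 8 lowest genes moved by Nexturastat A alone (x axis) in each library, as log2 CPM minus the mean of the library's own controls (y axis). The Nexturastat A libraries lie far from 0 in both directions, while most HPOB and Tubastatin A libraries lie close to 0.

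The largest changes with Nexturastat A were in genes near 0 CPM in Ctrl, whose intervals with HPOB and Tubastatin A are too wide for the conditions above. ACTBL2, an actin-like gene, measured 0.0341 and 0.0337 CPM with Ctrl and 54.0 and 30.2 with Nexturastat A, against at most 1.06 CPM in the other experiment. At the other end MUC5AC, a gel-forming mucin, measured 252 and 165 CPM with Ctrl and 0.598 and 3.40 with Nexturastat A. It was already low with DMSO, at 6.34 to 7.79 CPM, and measured 5.12, 2.35 and 5.95 with HPOB and 5.83 to 7.84 with Tubastatin A. The log2 fold changes of MUC5AC were -6.70 (adjusted p = 0.0117, edgeR), -0.67 and -0.04, and the first was not called without Ctrl replicate 1 or 2 (0.0983 and 0.0981).

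The 3 pairs of compounds were compared directly in the joint fit, each treatment as given and relative to its own controls. Nexturastat A differed from HPOB for 2506 of 17083 genes (14.7%), 1435 higher (8.4%) and 1071 lower (6.27%), and from Tubastatin A for 2664 (15.6%), 1518 higher (8.89%) and 1146 lower (6.71%). Without Ctrl replicate 1 or 2 these counts were 1352 and 1224 against HPOB and 1396 and 1345 against Tubastatin A, and without Nexturastat A replicate 1 they were 1488 and 1557. CXCL8 was higher with Nexturastat A than with HPOB by 1.33 on the log2 scale (adjusted p = 0.00494) and than with Tubastatin A by 1.85 (0.000403). For IL1A the difference from HPOB was -0.64 (adjusted p = 0.394), which was not called, although IL1A had the larger fold change with HPOB. Of 32 mitotic genes 28 were called lower with Nexturastat A than with HPOB and 25 than with Tubastatin A, although 2 passed against Ctrl. The joint fit takes its spread from all 13 libraries, while the Nexturastat A replicates differed widely for this list (medians -2.95 and -1.15). These calls may therefore overstate how certain the differences are.

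Tubastatin A and HPOB, which ran in the same experiment, differed for 37 genes (0.217%), 17 higher (0.0995%) and 20 lower (0.117%) with Tubastatin A, where 576 had an unadjusted p under 0.05. This count rests on the adjustment over the 3 pairs together, since it was 0 when p was adjusted over this pair alone. It was also 0 in a fit of the 9 libraries of that experiment, adjusted over this pair. It ranged from 15 without Ctrl replicate 1 or 2 to 160 without Tubastatin A replicate 2, and 12 of the 37 genes had a mean under 1 CPM. For 12462 genes (72.9%) the 95% interval of the difference lay inside 2-fold.

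FAM167A was the highest of the expressed genes in this pair. It measured 4.74, 4.70 and 4.30 CPM with DMSO, 4.43, 4.46 and 4.58 with HPOB, and 6.54, 7.41 and 6.81 with Tubastatin A, so the Tubastatin A libraries stood alone. The difference was 0.61 (95% interval 0.31 to 0.91, adjusted p = 0.0111, edgeR). IRF7, a transcription factor of the interferon response, measured 11.5, 9.13 and 12.1 CPM with DMSO, 7.34, 6.99 and 8.58 with HPOB, and 11.1, 10.5 and 12.8 with Tubastatin A. Here the HPOB libraries stood apart on the low side, and the difference was 0.57 (0.24 to 0.90, adjusted p = 0.0284), which was lost without Tubastatin A replicate 3 (0.108) and without Ctrl replicates 1 and 2, HPOB replicates 1 and 2 or Tubastatin A replicate 1 (0.0545 to 0.0749). MICALL2 (0.53), GJD3 (0.56) and XKR8 (0.36) were also higher with Tubastatin A. FAM167A kept its call with each of the 13 libraries left out in turn, whereas MICALL2 lost it for 3 (HPOB replicates 1 and 2 and Tubastatin A replicate 2), and GJD3 and XKR8 for 11.

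TNFSF15, DNAAF3 and HRSP12 were lower with Tubastatin A than with HPOB, by differences of -0.42 (-0.64 to -0.20, adjusted p = 0.0179, edgeR), -0.50 (-0.80 to -0.21, 0.0284) and -0.51 (0.0459). DNAAF3, an assembly factor of dynein arms, measured 3.46 to 4.39 CPM with DMSO, 6.90, 5.89 and 7.24 with HPOB, and 4.30, 4.77 and 5.15 with Tubastatin A. TNFSF15 lost its call without Tubastatin A replicate 1 (0.0527), DNAAF3 without 6 of the 13 libraries in turn (0.0505 to 0.0966) and HRSP12 without 10 (up to 0.170). CXCL8 (-0.52, 95% interval -0.88 to -0.17, adjusted p = 0.0627) and IL1A (-0.62, -1.13 to -0.11, 0.128) were not called, with intervals that exclude 0 before adjustment. For HSPA5 the difference was -0.13 (-0.42 to 0.16), for CDKN1A -0.13 (-0.38 to 0.12) and for HDAC6 0.11 (-0.25 to 0.47), and a p that misses the threshold does not show that the compounds act alike on these genes. None of the 27 unfolded protein response genes, 25 NF-kB list genes, 23 cohesin genes or 32 mitotic genes was called in this pair.

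**Figure D5:**
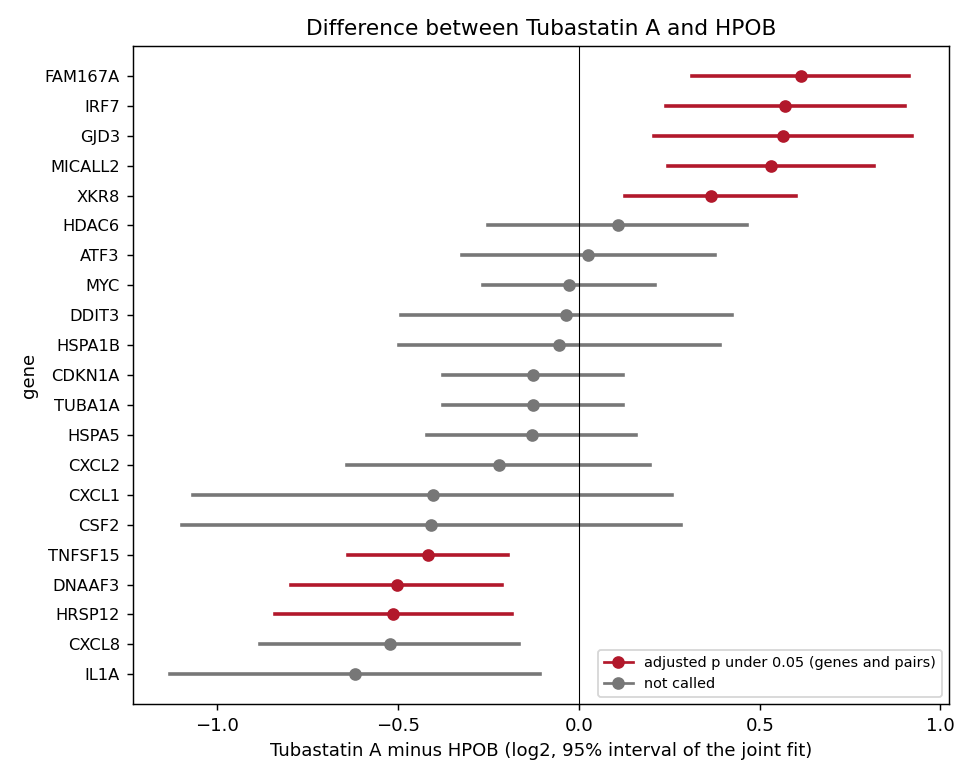
Difference between Tubastatin A and HPOB (x axis, log2, with its 95% interval from the joint fit of 13 libraries) for 21 genes (y axis). Red points passed at an adjusted p under 0.05 over genes and pairs, and grey points, among them CXCL8, HSPA5 and CDKN1A, did not.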

How the data were processed

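RNA was extracted as total RNA and libraries were made with a Vazyme kit, per the labels' protocols. The authors deposited a table of raw read counts per gene symbol for each library, and per the submitters' processing notes the tools were Trim Galore 0.6.7, STAR 2.7.9a, featureCounts 2.0.3 and DESeq2 1.30.1 on GRCh38. The sources used here name neither the gene annotation nor the strand setting, so overlapping and antisense genes and close paralogs are uncertain. The 13 tables list 26485 symbols, of which 24617 matched GENCODE for position, length and GC content.

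Counts were tested with edgeR 4.0.16 (R 4.3.3, limma 3.58.1), by a robust quasi-likelihood fit with TMM scaling and a filter at 10 counts in the smallest group and 15 in total. The Nexturastat A experiment (4 libraries, 16678 genes) and the HPOB and Tubastatin A experiment (9 libraries, 15338 genes) were fitted apart. The 3 pairs of compounds were tested as differences of changes in a joint fit of 13 libraries (17083 genes). Benjamini-Hochberg adjustment ran over genes in the first 2 fits and over genes and pairs in the third, with 0.05 as threshold. Changes in single libraries are log2 CPM (prior count 2) minus the mean of the library's own controls. Each fit was checked on simulated data, with all libraries drawn from the same mean per gene apart from few changed genes. For Nexturastat A 67, 64 and 65 of 16330 genes were changed by 1.5-, 2- and 4-fold. In the real data 36.6% of genes passed with Nexturastat A, so the simulated rates need not hold there. The Nexturastat A test recovered 2.99%, 37.5% and 84.6% of 1.5-, 2- and 4-fold changes, with 13 false calls beside 2, 24 and 55 true ones. At 2-fold the HPOB test recovered 72.7% and the Tubastatin A test 81.8%, with 9 and 3 false calls. The test of Nexturastat A against HPOB recovered 0% at 1.5-fold and 31.8% at 2-fold. Its 95% intervals held for 87.5% of the 4-fold changes. Named genes were the deacetylases called, the 8 highest and lowest called per compound, the 8 highest and lowest shared and alone, the 5 highest and lowest called per pair, with mean log2 CPM reaching 2 or more, and up to 4 called members per list; others were added as examples after their values were seen. Alternatives were another scaling (RLE), other filters, DESeq2 1.42.0, the 2 groups alone, the 9 libraries alone for the pair within that experiment, p adjusted over each pair alone, a prior count of 0.5, a replicate block, stricter limits for shared and alone genes, and leaving out single libraries. Removal of trends on length and GC content was chosen after seeing the data. The compounds, gene lists and rules were chosen with earlier results of these data known.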

Additional observations from a re-analysis of the deposited data

How the results depend on the processing

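The labels give no pairing of same-numbered libraries, so the main fits used none. Residuals of same-numbered libraries correlated at 0.105 in the Nexturastat A experiment, where 2 libraries per group give a single value. They correlated between -0.155 and 0.198 in the other experiment. Weak correlations do not show that same-numbered libraries were prepared apart. With a replicate block the genes called numbered 6518 with Nexturastat A, 7 with HPOB and 0 with Tubastatin A, and for the pairs 45 (Tubastatin A against HPOB), 2763 (Nexturastat A against HPOB) and 2942 (Nexturastat A against Tubastatin A), with 1949 genes moved by Nexturastat A alone. The count of shared genes comes from no test and has no block.

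The 4 HPOB calls became 14 without a filter on low counts, 2 at a minimum mean of 5 CPM, 120 with DESeq2 (101 higher and 19 lower), 15 with the 2 groups alone, 27 with length and GC trends removed (a setting chosen after seeing the data), and 20 without HPOB replicate 3 and Tubastatin A replicate 2. The 0 calls with Tubastatin A became 23 with DESeq2 and 3 with those trends removed. The 6112 Nexturastat A calls became 3586 at 5 CPM, where fewer genes were tested. The 37 calls between Tubastatin A and HPOB became 20 at 5 CPM, 93 with DESeq2, 69 with trends removed, 99 without HPOB replicate 3 and Tubastatin A replicate 2, and 0 with p adjusted over that pair alone or in the 9 libraries of that experiment. The 1763 shared genes became 153 at 1.2-fold or more, where the NF-kB list kept 7 of its count of 14 and the cohesin, mitosis and repair lists 0, and the 1645 genes moved by Nexturastat A alone became 925 with intervals inside 0.5 on the log2 scale. Trends removed gave 19 shared mitotic genes in place of 12. The causes were not tested.

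Leaving out 1 library at a time gave 1781 to 8922 genes for Nexturastat A, 0 to 78 for HPOB, 0 to 0 for Tubastatin A, 15 to 160 for Tubastatin A against HPOB, 1224 to 3441 and 1345 to 3671 for Nexturastat A against HPOB and Tubastatin A, 1750 to 2565 shared genes and 590 to 2631 moved by Nexturastat A alone. Where this leaves 1 library in an arm, that library is assumed to vary like the others. The count between Tubastatin A and HPOB was 15 without Ctrl replicate 1 or 2, 22 and 21 without DMSO replicates 1 and 3, 24 without Tubastatin A replicate 3, 62 and 79 without HPOB replicates 1 and 3, 72 without Nexturastat A replicate 2, and 160 without Tubastatin A replicate 2. Members of lists with the same sign ranged from 13 to 15 for NF-kB, 10 to 17 for cohesin, 12 to 19 for mitosis and 11 to 14 for repair, and unfolded protein response genes above DMSO from 20 to 21 with HPOB and 18 to 20 with Tubastatin A.

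Of the named genes called with Nexturastat A, 49 of 128 lost the call in at least 1 setting, all 49 among them without a Ctrl library. All 4 named for HPOB and all 9 named for the pair of Tubastatin A and HPOB lost it in at least 1 setting. No call of a gene named by the rules changed direction in any setting run. Values that were not called, and genes added as examples, were not followed through the settings. The median standard error of a log2 fold change was 0.19 with Nexturastat A and 0.15 with HPOB and Tubastatin A, so changes of the median size seen with the last 2 compounds could not be told from the spread between libraries at this replication.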
